A study of Gossypium barbadense with 48 samples.

Results

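The loci described here are the 200 most abundant of the transcribed loci that the authors' assembly added to the gene annotation of Gossypium barbadense. They were chosen by level: of 7726 new loci among 69337 genes, 6524 had a summed count above 10 in both cultivars, and the 200 with the highest mean FPKM over all 48 libraries were kept. FPKM counts fragments after scaling for transcript length and library depth. RNA came from the cultivars PimaS-7 and 5917, the parents of a mapping population that differ in fiber strength, at 8 stages spaced 5 days apart from 0 to 35 days post anthesis (DPA). Each of the 16 groups held 3 libraries. No group carried a treatment. By the study's methods the 0 DPA material is ovules and the later material fibers, while the labels call all of it cotton fiber, so a comparison with 0 DPA also compares tissues. The study calls the replicates biological without saying whether each came from its own plants, so p-values measure the spread between these samples.

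A cotton fiber is a single cell that grows from the outer layer of the ovule. It starts around flowering, elongates with a thin primary wall, then lays down a thick secondary wall of nearly pure cellulose, and dries at maturity. A new locus is a stretch of genome where aligned reads were assembled into a transcript outside the known gene models. It can be a missed protein-coding gene, a noncoding RNA, an untranslated end of a known gene, or a repeat. The files give each new locus a number, a length and its values, with no position, sequence or function, so none is named below beyond its number. Overlap with annotated genes and antisense reads cannot be told apart here, and how reads shared by A and D subgenome copies were assigned is not stated.

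Total counts per library ranged from 28222056 to 43390702. The 200 loci held 0.441 to 1.11% of the counts and 0.883 to 1.91% of the summed FPKM of a library. The summed FPKM of 3 secondary wall genes, MYB86, TBL43 and KNAT7, had a median of 9.55 in PimaS-7 at 10 DPA and 301.0 at 25 DPA, and of 9.19 and 146.6 in 5917. At 35 DPA the median was 101.4 in PimaS-7 and 181.0 in 5917. The 3 genes did not all move together. In PimaS-7 from 25 to 35 DPA, mean FPKM went from 166.4 to 28.6 for MYB86 and from 104.5 to 30.0 for TBL43. KNAT7 went from 30.8 to 44.8 there, and its mean was already 25.0 in PimaS-7 ovules. The summed FPKM of the 3 measured seed and embryo genes, a mark of other cells, had a median of at most 6.26 in every group and at most 0.141 from 25 DPA on. Of these, LEA6, a late embryogenesis protein gene, stayed at or below a mean of 0.186 in every group, and NFYB9 at or below 0.0428. Gbar_D08G020900 held most of the sum from 0 to 20 DPA. Its mean FPKM went from 1.293 in ovules to 5.198 at 5 DPA in PimaS-7, and from 2.236 to 6.088 in 5917. From 25 DPA on it was at most 0.1134 in every group. The part of other cells in its level in early fibers was not tested. Of 4 nuclear photosynthesis genes, listed as a mark of green tissue, PSBW, a photosystem II subunit gene, held most of the level late in 5917. Its mean FPKM there was 1.197 at 0 DPA and 27.4, 33.6 and 20.4 at 25, 30 and 35 DPA, against 8.58, 14.9 and 3.595 at those late stages in PimaS-7. PSBT had a mean FPKM of 2.57 in 5917 ovules and of 0.366 to 0.615 late, the second psbW gene 0.655 and at most 0.0750, and PSAN had a mean FPKM of at most 0.414 in every group. The list therefore did not move together, and the part of green tissue in the differences between late libraries was not tested.

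The mean FPKM of the 200 loci ran from 12.03 to 276.9, with a median of 22.8. These values chose the loci and are given as a description. The last loci inside the limit were newGene_7488 at 12.06 and newGene_743 at 12.03, and the first outside were newGene_15390 at 12.02 and newGene_5561 at 11.93, so the limit cuts a continuous range. The loci were short. Their median length was 746 bases, against 1374 for the 6324 other new loci that passed the count minimum and 1922 for the 7555 annotated genes with a mean FPKM at least as high. Of the 200, 151 were under 1000 bases. FPKM divides by length, which favours short loci in the choice: ranking by mean CPM, a count scaled for depth and not for length, kept 154 of the 200, and the median length of the loci so chosen was 925 bases.

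The deposited FPKM and the deposited counts were compared for each locus. Over the 48 libraries, the FPKM and the depth-scaled counts per kilobase had a Pearson r of 0.918 or more on a log2 scale for all 200 loci, with a median of 0.998. Their ratio had a median of 0.859 over the loci, but it was over 2 for 9 of them. It reached 10.5 for newGene_4172, of 15612 bases, and 9.55 for newGene_4171, of 16718 bases. newGene_4171 had a mean FPKM of 16.5 and a mean of 1.74 depth-scaled counts per kilobase, on the same scale. Of the 200 loci, 183 were also among the 200 highest new loci by counts per length.

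Most of the loci were transcribed throughout, which is given as a description, since the same FPKM values chose them. A count above 0 was found in all 48 libraries for 185 of the 200, and an FPKM above 0.5 in all 48 for 182. Between 189 and 199 of the loci passed 0.5 FPKM in any 1 library. The number of libraries above 0.5 FPKM had a lower quartile of 48 both over the loci and over the abundant annotated genes. The coefficient of variation over the 16 group means had a median of 42.5%, close to the 41.8% of the 7555 abundant annotated genes and below the 101.7% of the other new loci. The other new loci had a median mean FPKM of 0.602, so the last comparison is not between like levels. In 50 loci the highest group mean was under 3 times the lowest.

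The most even loci over the 16 groups were newGene_12687, newGene_371, newGene_5699, newGene_11526 and newGene_5028. newGene_371, the fourth most abundant of the 200, had a mean FPKM of 127.5 ± 1.10 (SD, n = 3) in PimaS-7 ovules and 182.7 ± 5.94 (SD, n = 3) in PimaS-7 fibers at 25 DPA. Its lowest library was at 82.9, in 5917 at 5 DPA, and its highest at 201, in 5917 at 30 DPA. newGene_20164, the second most abundant, read 178, 170 and 163 FPKM in PimaS-7 at 0 DPA, 379, 309 and 348 at 25 DPA and 197, 252 and 158 at 35 DPA. In 5917 it read 130, 172 and 127 at 0 DPA, 320, 299 and 237 at 25 DPA and 253, 403 and 279 at 35 DPA. All 48 libraries therefore held both loci at over 80 FPKM.

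The most abundant new locus was instead nearly silent before 25 DPA. newGene_7965, of 1305 bases, read at most 7.09 FPKM in the 30 libraries of 0 to 20 DPA. At 25 DPA it read 214, 237 and 337 FPKM in PimaS-7 and 781, 1007 and 919 in 5917, so that every 5917 library was above every PimaS-7 library. At 30 DPA the values were 906, 777 and 915 in PimaS-7 and 1005, 896 and 869 in 5917, and the cultivars overlapped. At 35 DPA PimaS-7 read 410, 650 and 313, and 5917 read 1114, 830 and 1099, and the cultivars were apart again. In edgeR's test of the counts PimaS-7 was called lower than 5917 for this locus at 25 and at 35 DPA and not at 20 or 30 DPA.

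newGene_17497, of 2374 bases and the sixth most abundant, was at 0 FPKM in all 30 libraries up to 20 DPA. At 25 DPA it read 54.6, 53.3 and 222 FPKM in PimaS-7 and 192, 385 and 232 in 5917, and at 35 DPA 304, 574 and 63.5 in PimaS-7 and 427, 875 and 750 in 5917. Its replicates differed several fold within a group from 25 DPA on. Taking 3 counts as the floor of a group that held none, the level at 25 DPA was at least 8137-fold that at 10 DPA in PimaS-7 and at least 13995-fold in 5917. newGene_7954, of 784 bases, was likewise at 0 FPKM up to 20 DPA and at 25 DPA read 19.2, 52.1 and 14.6 in PimaS-7 and 166, 337 and 9.08 in 5917. newGene_10222, of 2551 bases, read at most 4.77 FPKM up to 20 DPA and then 1189, 17.9 and 161 in PimaS-7 at 25 DPA, so its mean of 456 there rests on 1 library. In 5917 at 25 DPA it read 106, 89.3 and 33.2.

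newGene_13906, of 989 bases, started earlier. It was at 0 FPKM in all 12 libraries of 0 and 5 DPA and at most 4.36 at 10 DPA. At 15 DPA it read 6.63, 43.04 and 67.8 in PimaS-7 and 205, 90.1 and 126 in 5917, with no overlap. At 35 DPA it read 15.2, 69.0 and 14.3 in PimaS-7 and 311, 166 and 196 in 5917. newGene_17058, of 668 bases, read 1.02 to 2.65 FPKM at 0 DPA and was highest at 35 DPA, with 253, 127 and 350 in PimaS-7 and 897, 445 and 205 in 5917. newGene_13510, of 573 bases, read at most 0.449 FPKM in ovules and 38.5, 50.1 and 42.7 in PimaS-7 at 25 DPA. In all, 10 of the 200 loci (5%) had every library of 0, 5 and 10 DPA below every library of 25, 30 and 35 DPA, where 2.05% of the 69336 genes with an FPKM above 0 did, and 8.27% of the abundant annotated genes.

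**Figure D1:**
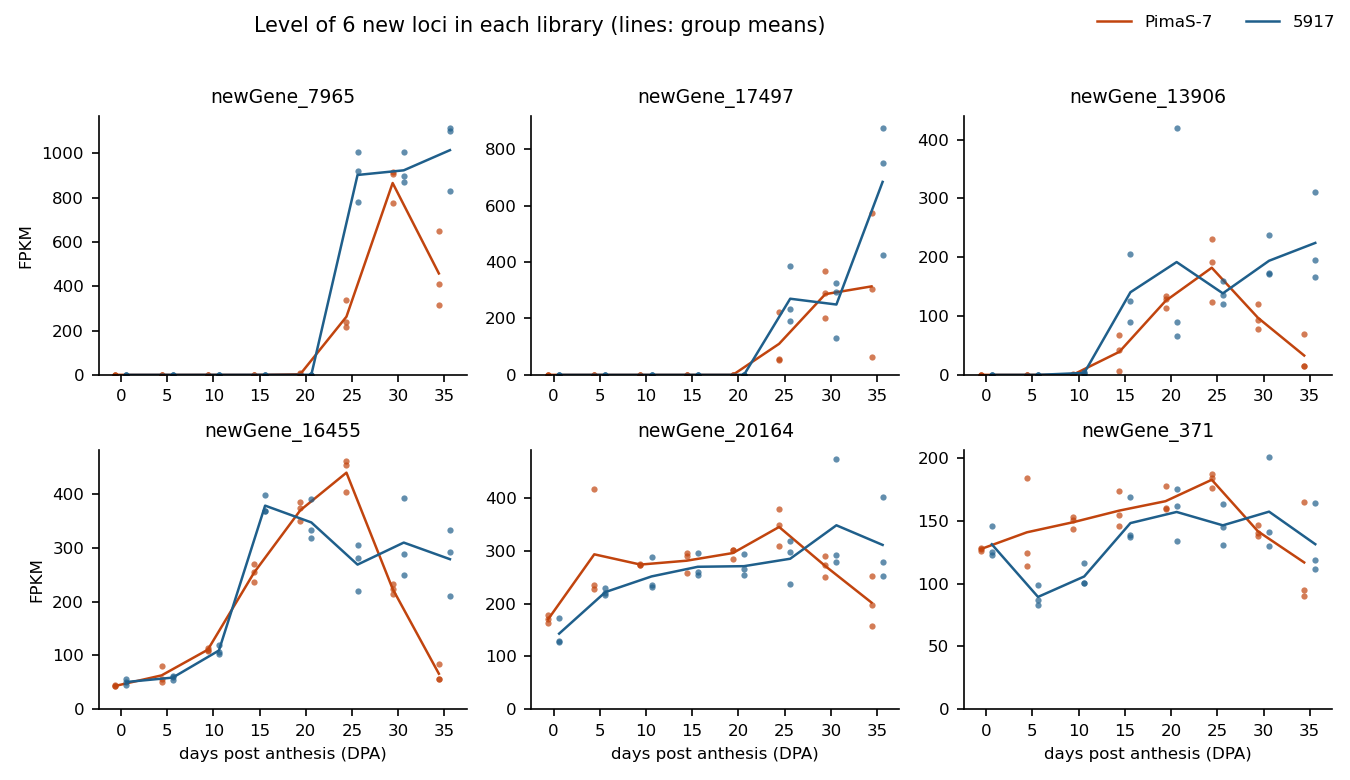
FPKM of 6 new loci (vertical axes, each from 0) by stage in days post anthesis, with 1 point per library and lines through the means of the 3 libraries of a group. newGene_7965 and newGene_17497 are at or near 0 until 20 DPA, newGene_13906 until 10 DPA, and newGene_20164 and newGene_371 are over 80 in every library.

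The reverse pattern was also present. In 17 loci (8.5%) every ovule library was above every fiber library, a share near the 9.19% of all genes with an FPKM above 0. Among the abundant annotated genes it was 4.83%. newGene_12286, of 1744 bases, read 69.2, 74.8 and 81.4 FPKM in PimaS-7 ovules and 60.8, 54.0 and 64.6 in 5917 ovules, and at most 30.5 in any fiber library. newGene_2210, of 2249 bases, read 67.6 to 99.2 in ovules, 32.1 to 71.0 at 5 DPA and at most 9.42 from 15 DPA on. newGene_11682, of 1538 bases, read 89.3 to 141 in ovules and 1.57 to 8.02 in PimaS-7 at 25 DPA, and then 19.1, 34.2 and 70.6 in PimaS-7 at 35 DPA. newGene_14094, of 754 bases, had a high level at both ends. In PimaS-7 it read 39.9, 19.1 and 32.5 in ovules, at most 0.599 at 15 and 20 DPA, and 121, 75.3 and 44.5 at 30 DPA. In 5917 it was as high in ovules, at 55.5, 17.8 and 32.1, but read only 1.92, 2.50 and 3.11 at 30 DPA.

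Loci between these ends included newGene_2026, of 596 bases, which was highest in PimaS-7 at 5 DPA at 61.3 to 83.1 FPKM. newGene_1059, of 713 bases, read 18.7 to 29.3 at 10 DPA in both cultivars and 2.29 to 4.59 at 25 DPA. newGene_7443, of 495 bases, read 54.8, 63.1 and 61.4 in PimaS-7 at 20 DPA and 11.1, 9.95 and 8.83 at 35 DPA. newGene_16292, of 1340 bases, was highest at 15 and 20 DPA, at 35.97 to 82.5 in both cultivars, and read 0.5003 to 1.15 at 35 DPA.

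Some loci were erratic between replicates. newGene_9589, of 1196 bases, was at 0 FPKM in all 6 ovule libraries and read 0.484 to 6.56 in most fiber libraries of 5 to 20 DPA, but 184 in 1 library of 5917 at 5 DPA, and 269 and 305 in 1 library each of PimaS-7 at 10 and 15 DPA. Its place among the 200 rests on those 3 libraries. newGene_19040, of 1442 bases, read 0, 0 and 60.4 in PimaS-7 ovules, 199, 283 and 160 in PimaS-7 at 5 DPA and 0, 47.3 and 312 in 5917 at 25 DPA. newGene_7011 read 61.3 and 59.3 in 2 libraries of PimaS-7 ovules and 2.06 in the other. The SD of replicates on log2(FPKM + 1) had a median of 0.233 over the 200 loci and reached 2.63.

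The stage of the highest level depended on the scale. By FPKM averaged over the 6 libraries of a stage, 72 of the 200 loci (36%) were highest in ovules and 39 (19.5%) at 25 DPA, against 17.1% and 10.3% of the 7555 abundant annotated genes. By TMM-normalized CPM, which rescales each library so that most genes keep the same level, 28 loci were highest at 0 DPA and 83 at 25 DPA. The annotated genes were not counted on that scale, so these counts have no share beside them. TMM factors ran from 1.77 to 1.90 in ovules and from 0.631 to 0.938 at 25 DPA, and the 10 genes with the highest counts took 1.15 to 1.98% of the counts of an ovule library and 4.87 to 8.77% of one at 25 DPA. By FPKM, the highest group fell at the same stage in both cultivars for 70 loci, later in PimaS-7 for 68 and later in 5917 for 62.

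**Figure D2:**
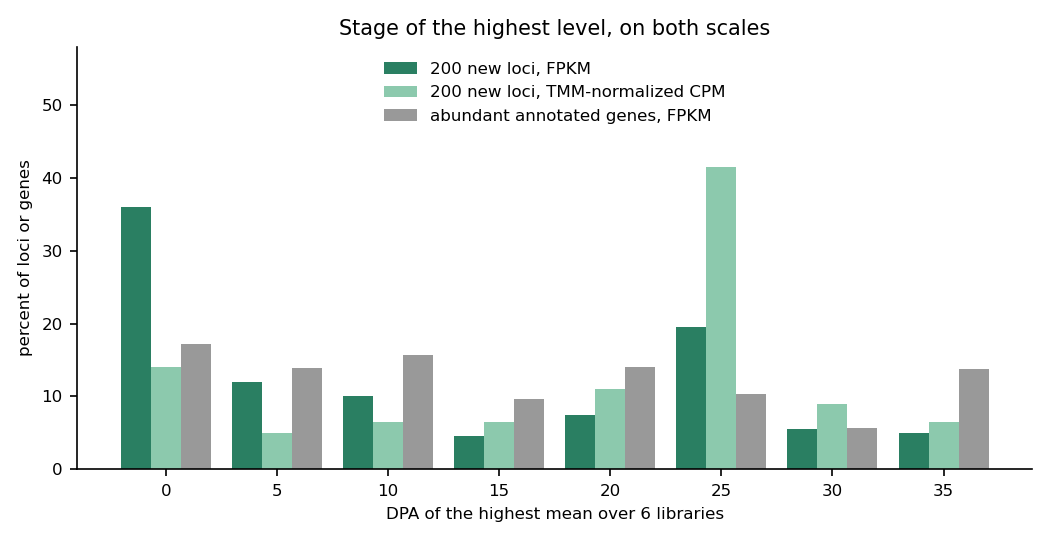
Percent of the 200 new loci, and of the 7555 annotated genes at least as abundant, whose highest mean over the 6 libraries of a stage fell at each DPA. By FPKM the largest bar of the new loci is 36% at 0 DPA, and by TMM-normalized CPM it is 41.5% at 25 DPA. Bars of the annotated genes are by FPKM only, so the TMM bars have no annotated counterpart.

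Counts were then compared between stages and between cultivars. A locus was called at an adjusted p of at most 0.05 over all genes tested and a change of at least 1 on the log2 scale, by edgeR's quasi-likelihood test with TMM scaling on the 6 libraries of a comparison. Since the loci were chosen for a high mean, the counts below are read beside the share called among all genes tested and among the abundant annotated genes. In bulk samples, fewer cells of a type and less RNA per cell cannot be told apart.

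From ovules to fibers at 5 DPA, 37 of 194 tested loci rose in PimaS-7 and 2 fell, or 19.1% and 1.03%, where 9.63% and 6.51% of all genes tested were called higher and lower. Among abundant annotated genes 29.7% were called higher. In 5917, 28 of 193 rose and 11 fell, or 14.5% and 5.70%, where the shares over all genes were 14.4% and 10.6%, and 42.8% of the abundant annotated genes were called higher. The split in 5917 depended on the scaling: with library totals in place of TMM, 12 loci were called higher and 44 lower. The loci called rose from 39 to 56, and all genes called from 12625 to 17705. Of the 37 loci that rose in PimaS-7, 24 also rose in 5917, which is 64.9% of the one list and 85.7% of the other. This overlap was not counted over all genes, so it is not read as a trait of the loci.

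In PimaS-7, newGene_18923 rose by 3.53 ± 0.16 (SE) on the log2 scale, at an adjusted p of 8.4e-05 by edgeR. newGene_13510 rose by 5.62 ± 0.89 (SE) in PimaS-7 and by 4.04 ± 0.80 (SE) in 5917, at adjusted p of 0.0032 and 0.0050 by edgeR, from ovule levels close to 0. newGene_15023 rose by 5.42 ± 1.04 (SE) in 5917, at an adjusted p of 0.0044 by edgeR, from ovule libraries at 0, 0.517 and 0 FPKM. In these comparisons newGene_13510 and newGene_15023 passed the count filter through their 5 DPA libraries, so only a rise could be called. newGene_14094 fell by 3.16 in PimaS-7 and by 3.91 in 5917 on the log2 scale, and newGene_12286 fell by 1.17 and 1.33. newGene_9589 was at 0 counts in ovules and at least 167-fold higher in PimaS-7 at 5 DPA. It passed the count filter through its 5 DPA libraries, so only a rise could be called. In 5917 its call was lost when any 1 ovule library was left out, with adjusted p of 0.058 to 0.063 by edgeR, and its mean there rests on the library at 184 FPKM.

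From 10 to 25 DPA, from elongation to wall thickening, 70 of 200 loci rose in PimaS-7 and 9 fell, or 35.0% and 4.50%, where 15.9% and 19.3% of all genes were called. Among abundant annotated genes the shares were 31.1% and 9.55%. In 5917, 43 of 199 rose and 6 fell, or 21.6% and 3.02%, against 15.8% and 12.7% of all genes and 18.8% and 13.2% of the abundant annotated genes. With library totals in place of TMM, 28 loci were called higher and 26 lower in PimaS-7, and 29 and 9 in 5917. In PimaS-7 the loci called fell from 79 to 54, while all genes called rose from 16951 to 21948. In 5917 the loci called fell from 49 to 38, and all genes called from 13621 to 12600. The median change of the loci in PimaS-7 was 0.59 with TMM and -0.07 with library totals on the log2 scale, but it lay 0.70 above the median of all genes under either scaling. Of the 43 loci that rose in 5917, 40 also rose in PimaS-7, an overlap that was likewise not counted over all genes.

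The largest rises were those of newGene_17497, newGene_7954 and newGene_10222, which had no counts at 10 DPA in either cultivar. These loci passed the count filter through their 25 DPA libraries, so only a rise could be called. newGene_7954 was at least 1383-fold higher at 25 DPA in PimaS-7 and at least 6032-fold in 5917, and newGene_10222 at least 5476-fold in 5917. newGene_16455, the third most abundant locus, read 113, 109 and 109 FPKM in PimaS-7 at 10 DPA and 454, 461 and 404 at 25 DPA, a rise of 2.69 ± 0.13 (SE) on the log2 scale in TMM-scaled counts at an adjusted p of 1.7e-05 by edgeR. In 5917 it read 102, 118 and 107 and then 281, 306 and 219, a rise of 1.62 ± 0.29 (SE) at an adjusted p of 0.0041 by edgeR. Neither pair of groups overlapped. Among loci that fell, newGene_1059 fell by 1.88 and newGene_7011 by 1.74 on the log2 scale in PimaS-7, and newGene_16292 fell by 2.95 and newGene_5912 by 5.22 in 5917.

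The cultivars parted from 25 to 35 DPA. In PimaS-7, 8 of 199 loci rose and 104 fell, or 4.02% and 52.3%, where 18.2% of all genes tested were called higher and 15.8% lower. Abundant annotated genes were also called lower more often than higher, at 36.7% against 8.29%. In 5917, 1 of 197 loci rose and 1 fell, where 1.07% of all genes were called higher and 2.43% lower, and 15 loci had an unadjusted p under 0.05. With library totals in place of TMM, 19 loci were called higher and 59 lower in PimaS-7. The loci called there fell from 112 to 78, while all genes called rose from 15695 to 19433. The median change in PimaS-7 was -1.09 with TMM and -0.52 with library totals, and lay 1.28 and 1.29 below the median of all genes.

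newGene_16455 fell in PimaS-7 from 454, 461 and 404 FPKM to 56.2, 84.7 and 56.4, by 3.27 on the log2 scale with an SE of 0.31 and an adjusted p of 0.0010 by edgeR. In 5917 it read 281, 306 and 219 at 25 DPA and 292, 333 and 211 at 35 DPA, which overlap. newGene_17586, the fifth most abundant locus, fell in PimaS-7 from 222, 199 and 215 to 34.7, 42.96 and 37.5 FPKM, by 3.01 on the log2 scale. In 5917 it read 152, 190 and 118 and then 86.5, 146 and 101. newGene_5847, of 1509 bases, fell in PimaS-7 from 140, 129 and 132 to 42.8, 51.3 and 36.5, by 2.13 on the log2 scale, and read 117, 138 and 83.8 and then 91.6, 111 and 86.9 in 5917. Of the 10 most abundant loci, 7 were called lower in PimaS-7 and none in 5917, where the lowest adjusted p of the 10 was 0.18 by edgeR. Of all the new loci tested, 52.3% were called lower in PimaS-7 and 0.508% in 5917. Among abundant annotated genes the shares were 36.7% and 2.65%, and among all genes tested 15.8% and 2.43%.

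newGene_16292 was called lower in both cultivars, by 5.24 in PimaS-7, from 20.5, 14.9 and 15.4 to 0.689, 0.711 and 0.5003 FPKM, and by 1.95 in 5917. The 5917 call was lost without either of replicates 2 and 3 at 25 DPA or either of replicates 2 and 3 at 35 DPA, with adjusted p of 0.055 to 0.11 by edgeR, and with the replicate block, at 0.054. newGene_17058 rose in PimaS-7, from 14.4, 24.7 and 25.3 to 253, 127 and 350 FPKM, by 2.89 ± 0.39 (SE) on the log2 scale at an adjusted p of 0.0022 by edgeR. newGene_2904, of 7952 bases, was the 1 locus called higher in 5917, and the call was lost without any 1 of 5 of the 6 libraries, with library totals, with the replicate block and with limma, with adjusted p from 0.065 to 0.18 over these.

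The difference between the cultivars in this step was tested as an interaction over the 12 libraries of 25 and 35 DPA. Of 199 loci tested, 95 (47.7%) had a lower change in PimaS-7 than in 5917 and 1 (0.503%) a higher one, where 9.98% of all genes were called lower and 7.82% higher, and 29.1% and 4.16% of the abundant annotated genes. The interaction of newGene_16455 was -3.48 ± 0.50 (SE) on the log2 scale, at an adjusted p of 0.0039 by edgeR, and that of newGene_13906 was -3.88 ± 0.91 (SE), at 0.018. newGene_5247, of 866 bases, was the 1 locus with a higher change in PimaS-7: it read 5.66, 3.23 and 5.05 FPKM at 25 DPA and 20.2, 18.8 and 21.8 at 35 DPA in PimaS-7, against 8.52, 3.48 and 7.38 and then 5.68, 7.25 and 7.67 in 5917. The call of newGene_13906 was lost without replicate 3 of 5917 at 25 DPA, and that of newGene_5247 without any 1 of 10 of the 12 libraries, with adjusted p up to 0.088 by edgeR. Leaving out 1 library moved the number of loci called in the interaction from 96 to between 46 and 109. It was 46 without replicate 2 of 5917 at 35 DPA, 57 and 48 without replicates 1 and 3 of 5917 at 25 DPA, 56, 48 and 57 without replicates 1, 2 and 3 of PimaS-7 at 25 DPA, and 47 and 51 without replicates 1 and 3 of PimaS-7 at 35 DPA. In the interaction, library totals gave 10 higher and 47 lower. The loci called fell from 96 to 57, while all genes called rose from 8858 to 13519. The call of newGene_16455 was kept in every alternative run.

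**Figure D3:**
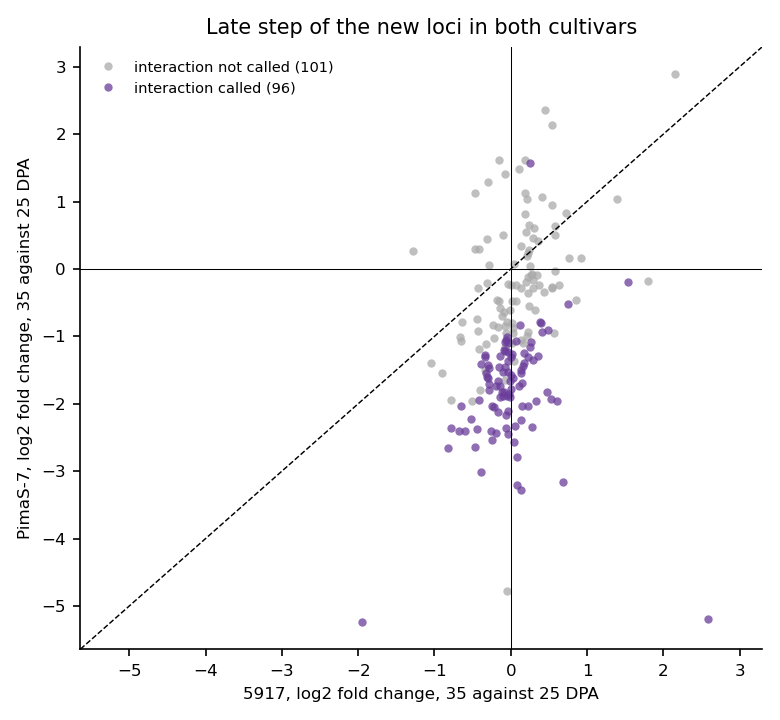
Log2 fold change from 25 to 35 DPA of each of the 197 loci tested in both cultivars, with 5917 on the horizontal and PimaS-7 on the vertical axis, the dashed line marking equal change. Purple points are the 96 loci called in the interaction, and 163 of the 197 loci lie below the line.

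**Figure D4:**
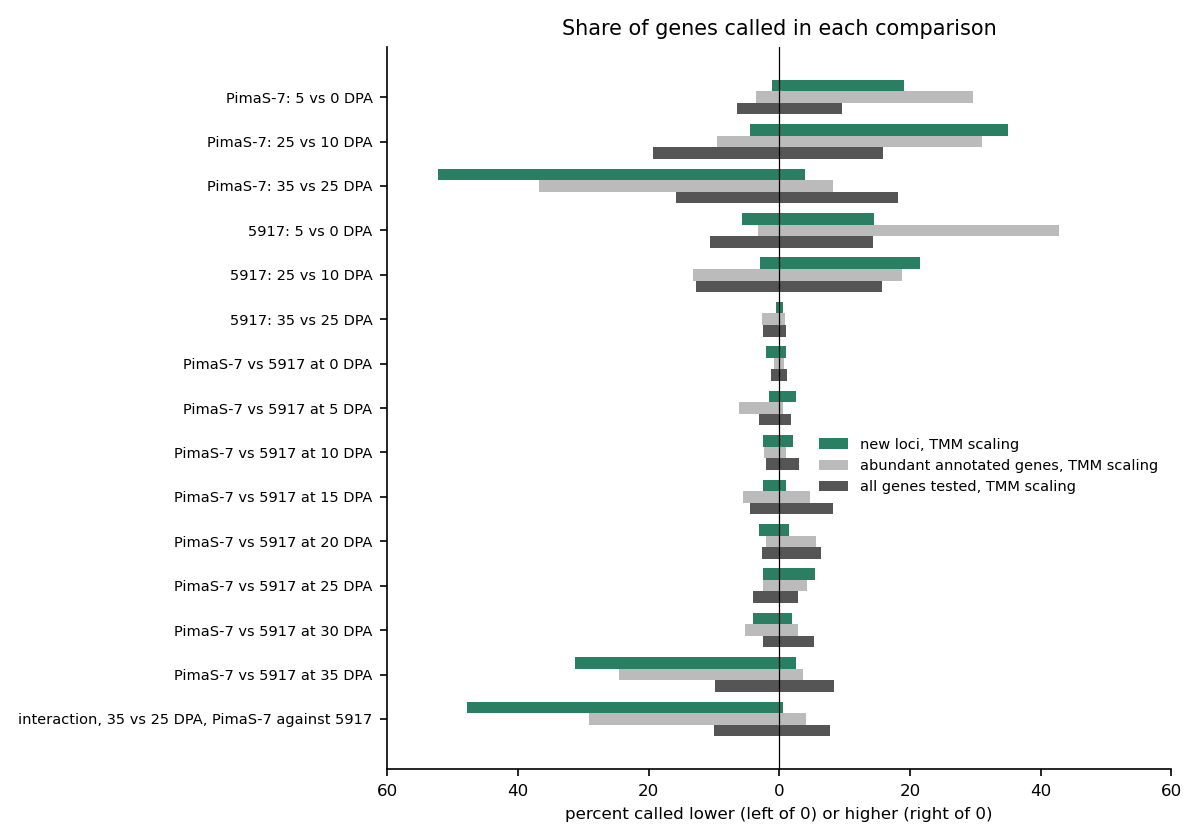
Percent of the tested new loci, of the tested abundant annotated genes and of all genes tested that were called lower (left of 0) or higher (right of 0) in each comparison with TMM scaling. The longest bar of the new loci is the 52.3% called lower in PimaS-7 from 25 to 35 DPA, and the bars of 5917 for the same step are near 0.

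Between the cultivars at one stage few of the loci were called before 35 DPA. Calls need a change of at least 1 on the log2 scale, so smaller differences are left out. An unadjusted p by edgeR was under 0.05 for between 39 of 191 loci, at 0 DPA, and 103 of 196, at 10 DPA. That number was not counted over all genes. At 0 DPA 2 of 191 loci were called higher in PimaS-7 and 4 lower, where 1.24% and 1.26% of all genes were called. At 5 DPA the numbers were 5 and 3 of 194, against 1.87% and 3.02% of all genes. At 10 DPA they were 4 and 5 of 196, against 3.09% and 1.99%. At 15 DPA they were 2 and 5 of 196, against 8.21% and 4.4%. At 20 DPA they were 3 and 6 of 196, against 6.33% and 2.58%. At 25 DPA they were 11 and 5 of 199, against 2.89% and 4.02%. At 30 DPA they were 4 and 8 of 199, against 5.35% and 2.47%. Shares of the loci at these stages lay between 1.02% and 5.53% in either direction. Among the abundant annotated genes, the shares called higher and lower were 0.706% and 0.801% at 0 DPA and 0.646% and 6.09% at 5 DPA. They were 1.06% and 2.36% at 10 DPA, 4.72% and 5.54% at 15 DPA, and 5.56% and 1.99% at 20 DPA. At 25 DPA they were 4.26% and 2.55%, and at 30 DPA 2.84% and 5.21%. The number called was 32 in place of 16 at 25 DPA without replicate 2 of 5917, and 24 in place of 12 at 30 DPA without replicate 2 of 5917.

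At 35 DPA 5 of 198 loci were higher in PimaS-7 and 62 lower, or 2.53% and 31.3%, where 8.32% of all genes were called higher and 9.89% lower, and 24.5% of the abundant annotated genes were called lower. With library totals the numbers were 18 and 25 at 35 DPA, 22 and 3 at 5 DPA, 10 and 3 at 10 DPA and 6 and 5 at 30 DPA. At 35 DPA the loci called fell from 67 to 43, while all genes called rose from 8370 to 12872. At 5, 10 and 30 DPA all genes called went from 2445, 2432 and 3616 to 2755, 3248 and 3789. Without replicate 1 of PimaS-7 at 35 DPA 23 loci were called in place of 67, without its replicate 3 there were 42, and without replicate 2 of 5917 at 35 DPA there were 36. Over the 8 stages 85 of the 200 loci (42.5%) were called at 1 stage or more, near the 42.9% of the abundant annotated genes, where 33.6% of all genes tested at any stage were called. The other 115 were called at none.

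A set of 5 loci was called at all 8 stages. Of the 190 loci tested at all 8, 2 (1.05%) were higher and 3 (1.58%) lower in PimaS-7 throughout, where 0.281% and 0.302% of all genes tested at all 8 were, and 0.152% and 0.0965% of the abundant annotated genes. In each of these 5, all 24 libraries of one cultivar were above all 24 of the other, and no other locus of the 200 showed this. Of all genes with an FPKM above 0, 0.203% had PimaS-7 above 5917 in this way and 0.203% below. No test of the difference between these shares was made. newGene_18923, of 3662 bases, ranged from 0.756 to 23.2 FPKM in PimaS-7 (median 6.11) and from 29.1 to 230.0 in 5917 (median 119.8). In ovules it read 0.756, 0.992 and 0.793 in PimaS-7 and 181, 96.8 and 128 in 5917, a difference of -7.33 ± 0.32 (SE) on the log2 scale at an adjusted p of 0.00017 by edgeR. newGene_18890, of 4166 bases, ranged from 0 to 11.7 FPKM in PimaS-7 (median 1.72) and from 35.2 to 158 in 5917 (median 64.6). Its difference ran from -7.36 at 35 DPA to -3.87 at 20 DPA on the log2 scale. newGene_17041, of 1479 bases, ranged from 0.320 to 4.25 FPKM in PimaS-7 and from 14.1 to 55.4 in 5917, with differences from -5.71 at 20 DPA to -2.92 at 0 DPA.

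The 2 loci higher in PimaS-7 were shorter. newGene_10299, of 1102 bases, ranged from 15.2 to 43.1 FPKM in PimaS-7 and was at 0 in most 5917 libraries, with a highest value of 0.609, so that it passed the count filter through PimaS-7. At 5 DPA, where no 5917 library held a count, PimaS-7 was at least 1311-fold higher, and at 35 DPA at least 658-fold. newGene_18952, of 787 bases, ranged from 14.7 to 83.5 FPKM in PimaS-7 and from 0.930 to 8.09 in 5917, with differences from 1.33 at 20 DPA to 3.91 at 5 DPA on the log2 scale. The calls of newGene_17041, newGene_10299 and newGene_18952 held at all 8 stages in every alternative run. newGene_18923 lost its call at 10 DPA without replicate 1 or 3 of PimaS-7, and at 20 DPA without any 1 of 5 of the 6 libraries, with adjusted p up to 0.10 by edgeR. The 20 DPA call was also lost with the replicate block, at an adjusted p of 0.099 by edgeR, and with limma, at 0.052. newGene_18890 lost it at 0, 10 and 25 DPA without 1 of 2, 4 and 2 libraries, with adjusted p up to 0.080 by edgeR. The replicate block also ended its calls at 0 and 10 DPA, at adjusted p of 0.073 and 0.051 by edgeR. The directions were kept throughout.

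**Figure D5:**
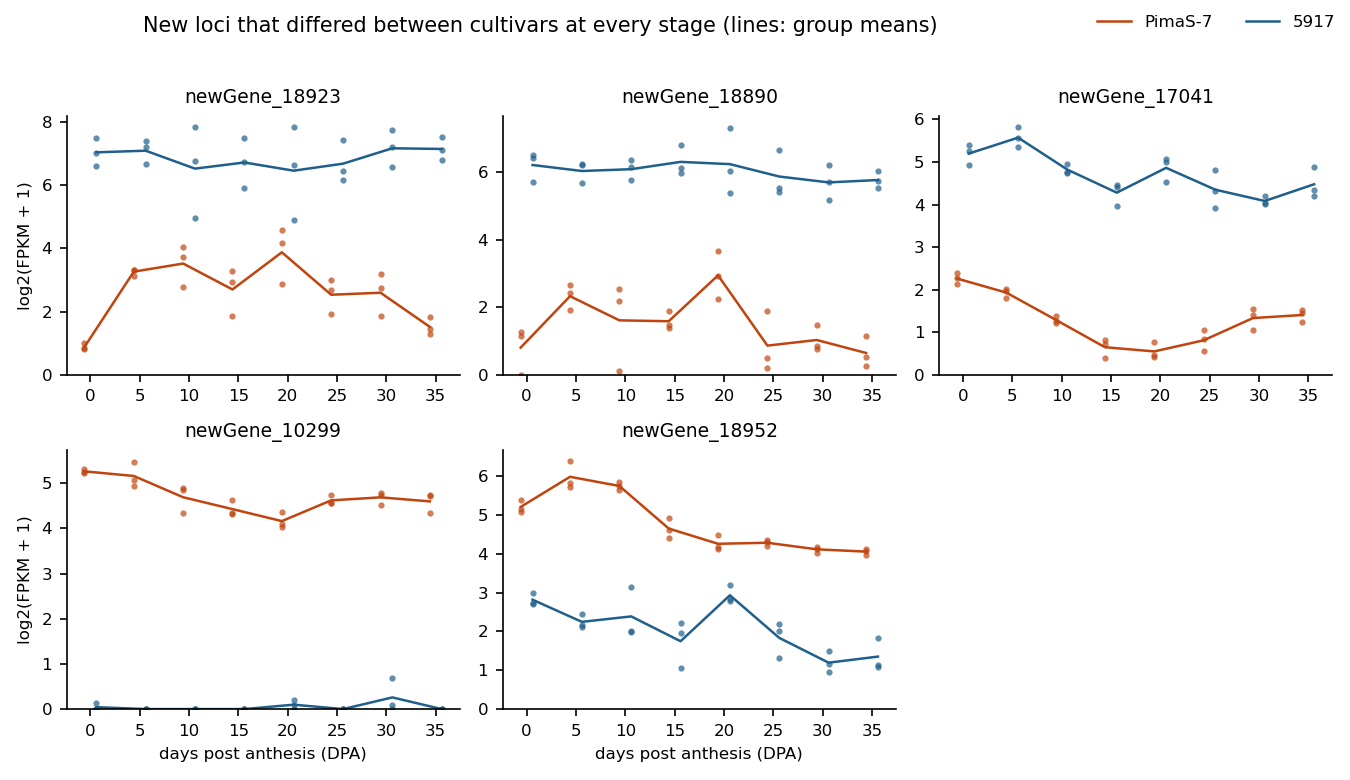
Log2(FPKM + 1) of the 5 loci called in all 8 comparisons of the cultivars, by stage in days post anthesis, with 1 point per library and lines through group means. All 24 libraries of PimaS-7 lie below all 24 of 5917 for newGene_18923, newGene_18890 and newGene_17041, and above them for newGene_10299 and newGene_18952.

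Other loci differed at a few stages. newGene_2870, of 667 bases, was lower in PimaS-7 at 4 stages and read 21.9, 17.97 and 24.3 FPKM at 15 DPA against 52.3, 52.5 and 47.6 in 5917. Its call at 30 DPA was lost without any 1 of 4 of the 6 libraries, with adjusted p from 0.063 to 0.12 by edgeR. newGene_14094 was higher in PimaS-7 at 30 DPA by 4.58 ± 0.45 (SE) on the log2 scale, at an adjusted p of 0.0020 by edgeR. newGene_4171 was higher in PimaS-7 at 5 and 25 DPA. The 25 DPA call of newGene_4171 was lost without any 1 of 5 of the 6 libraries, with adjusted p from 0.061 to 0.11 by edgeR, and with library totals, at 0.099.

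Loci with the same pattern were found by correlation of log2(FPKM + 1), given as a description over libraries that share stages. Over the 48 libraries, newGene_7965 and newGene_17497 had a Pearson r of 0.986, and newGene_16455 and newGene_6034, of 717 and 731 bases, one of 0.985. Of the 19900 pairs, 24 reached 0.95. Over the 16 group means, the closest of 36532 annotated genes to newGene_7965 was Gbar_A05G000980, with an r of 0.998, and to newGene_17497 Gbar_D08G005730, with 0.999. A second search was limited to 927 named genes that lie in the fiber strength intervals mapped by the study, not all named genes of the genome. Of these, the closest to newGene_17497 was HMA5, a probable copper-transporting ATPase, with an r of 0.993. Those closest to newGene_20164 and newGene_12063 were RPS10B and RPS24B, proteins of the small ribosomal subunit, with 0.899 and 0.917. newGene_371, newGene_10340 and newGene_5847 had weaker matches, with a highest r of 0.850, 0.836 and 0.847.

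Over the 200 loci, the first principal component of log2(FPKM + 1) held 43.3% of the variance and the second 23.4%. Each locus was centred on its mean and not scaled, so loci with wide changes weigh most. newGene_7965 made up 16.4% of the first component and newGene_17497 12.1%. On the first component, ovules had group means of -14.00 in both cultivars, and the 25 DPA groups 10.2 in PimaS-7 and 12.1 in 5917. At 35 DPA the means were 6.44 ± 3.1 (SD, n = 3) in PimaS-7 and 13.99 ± 0.46 (SD, n = 3) in 5917, and the libraries of the groups did not overlap. For 42 of the 48 libraries, the library closest by r over the 200 loci was of the same group.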

How the data were processed

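The authors aligned reads with HISAT2 to the Pima 3-79 genome and assembled and quantified transcripts with StringTie. The HISAT2 version and the program behind the read counts are not given in the sources used here. The authors deposited, for every gene in each library, a raw count and an FPKM value. Counts were tested with edgeR 4.0.16 in R 4.3.3, using filterByExpr at a count minimum of 10, TMM scaling, the quasi-likelihood F-test and Benjamini-Hochberg adjustment over all genes tested. The SE is the log2 fold change over the square root of F. Alternatives were DESeq2 1.42.0, its size factors in edgeR, no filter, a block for replicate numbers, limma 3.58.1 applied to log2(FPKM + 1), and each library left out. Library totals without TMM and a ranking by counts per length were chosen after seeing the data. The code was tested on simulated data. Levels and figures were made in Python 3.11.15 (numpy 2.4.6, pandas 2.3.3, matplotlib 3.10.9).

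The loci and the gene lists were chosen with earlier results of these data known. Loci were named from these sets: the 10 most abundant, those at the limit, the largest non-overlapping calls of each comparison (up to 3 per direction), 2 per peak stage, the 5 most even, 5 per direction called in the most cultivar comparisons, the closest annotated genes and the closest pairs. newGene_4172 was named after its values were seen. Of 5 seed and embryo genes listed, 2 were not analysed here. Summed FPKM of the other lists ranged from 24.9 to 112.2 for 4 primary wall genes, from 22.0 to 157.3 for 5 cell division and histone genes, and from 2.45 to 10.1 for the 5 measured genes with plastid-encoded names. Most of the primary wall sum was CESA3, with group means of 19.6 to 93.7, while EXPA15 and EXPA7 had means of at most 0.276. From 0 to 25 DPA in PimaS-7, CESA3 went from 19.6 to 91.3 and CESA6 from 6.47 to 1.42.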

Additional observations from a re-analysis of the deposited data

Results flagged for a closer look

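The change from 25 to 35 DPA differed between the cultivars by the interaction test for 96 of the 199 loci tested. It was lower in PimaS-7 for 47.7% of the loci, against 9.98% of all genes and 29.1% of the abundant annotated genes. The count fell to 46 without replicate 2 of 5917 at 35 DPA. With library totals it was 57, while all genes called rose from 8858 to 13519. The 3 named loci with the largest lower differences and the 1 locus with a higher one are given here, as PimaS-7 minus 5917 on the log2 scale, by edgeR. newGene_16455 differed by -3.48 and kept its call in every alternative run. newGene_13906 differed by -3.88 and lost its call without replicate 3 of 5917 at 25 DPA. newGene_5912 differed by -7.93 at an adjusted p of 0.050 by edgeR, with libraries from 0 to 38.2 FPKM among these groups, and its call was fragile. It was lost without any 1 of 10 of the 12 libraries, with adjusted p from 0.052 to 0.28 by edgeR, with the replicate block at 0.11, with limma at 0.075 and with library totals at 0.060. Without replicate 2 of 5917 at 35 DPA, which read 21.4 FPKM, the difference was -3.62. newGene_5247 differed by 1.22, the 1 difference in the other direction.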

How the results depend on the processing

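Without TMM, by library totals (chosen after seeing the data), the number of loci called was 1 in place of 2 for 5917 from 25 to 35 DPA, 25 in place of 8 between cultivars at 5 DPA, 43 in place of 67 at 35 DPA and 57 in place of 96 in the interaction. Over all genes the first 2 of these were 1026 in place of 1601 and 2755 in place of 2445. The last 2 were 12872 in place of 8370 and 13519 in place of 8858. With limma on log2(FPKM + 1) the number of loci called was 30 in place of 49 for 5917 from 10 to 25 DPA, 1 in place of 2 from 25 to 35 DPA, 17 and 16 in place of 8 and 9 between cultivars at 5 and 10 DPA, 39 at 35 DPA and 59 in the interaction. Over all genes the first 2 of the limma counts were 9256 in place of 13621 and 915 in place of 1601. Between cultivars at 5, 10 and 35 DPA they were 1603, 1199 and 7695, in place of 2445, 2432 and 8370. In the interaction all genes called were 11605 in place of 8858. With DESeq2 the number of loci called was 5 for 5917 from 25 to 35 DPA. Between cultivars it was 25 and 31 in place of 16 and 12 at 25 and 30 DPA. All genes called were 3636, 6084 and 6790, in place of 1601, 3165 and 3616. With the replicate block the number of loci called was 0 for 5917 from 25 to 35 DPA. Between cultivars at 10 DPA it was 5 in place of 9. All genes called were 1085 and 1498, in place of 1601 and 2432. The sources used here do not say whether same-numbered samples form pairs. Deviations of same-numbered libraries had r from -0.21 to 0.22, and 0 comparisons had every r over 0.1, which cannot decide it. The causes were not tested.

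Leaving out 1 library gave 0 to 2 loci for 5917 from 25 to 35 DPA, and, between cultivars at 10, 25, 30 and 35 DPA, ranges of 4 to 12, 8 to 32, 6 to 24 and 23 to 92. The interaction gave 46 to 109. In the other comparisons the count stayed within 1.5 times the main one, as it did in all 15 under DESeq2's size factors and without the filter. Of 1116 results for named loci, 982 kept their side of the threshold, 134 lost the call and 0 changed direction. At 3 libraries a group, one library can decide a count.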
